A study of Mus musculus with 12 samples.

Results

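Untreated KPC cells were compared with untreated MB49 cells over the whole transcriptome. KPC is a line of mouse pancreatic ductal adenocarcinoma cells and MB49 a line of mouse bladder cancer cells, and each had 3 control libraries, so the comparison rests on 6 of the 12 libraries of the series. The other 6 came from the same lines given 8 Gy of radiation and serve here for the shared estimate of the spread, for a check on 10 genes and for a count of genes found in single libraries. The labels give both lines the genotype WT and a medium of DMEM with serum and antibiotics, and call the treatment of the 6 libraries control. They give no passage, density or culture time for these cells, and nothing says whether a line's 3 libraries were grown apart. The p-values then measure only the spread between these libraries, which may be technical. The series text also mentions senescent tumour cells, while the label of each library does not. Each cancer is represented by 1 line. A difference found here is thus one between these 2 lines, and is not one between pancreatic and bladder cancer at large.

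The name KPC is used for mouse pancreatic tumours driven by mutant alleles, among them mutant Trp53, under a Cre recombinase expressed from the Pdx1 promoter, and such tumours resemble the duct cells of the pancreas. MB49 was derived from carcinogen-treated bladder epithelial cells of a male mouse, and is widely used because it grows in mice with an intact immune system. Duct cells carry simple keratins such as Krt7 and Krt19 and transcription factors of the foregut, whereas the bladder lining carries uroplakins and the factors Gata3, Pparg and Foxa1. Tumour cells of either origin can lose such features and take on mesenchymal ones, a shift known as epithelial to mesenchymal transition (EMT).

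Levels below are CPM, that is, estimated counts scaled to the size of each library, given for replicates 1, 2 and 3 in that order or as mean ± SD over the 3 libraries of a line (n = 3). Fold changes are on the log2 scale, KPC minus MB49, ± their standard error, from edgeR's quasi-likelihood test on 14362 genes, and the calls are those with a Benjamini-Hochberg adjusted p below 0.05. CPM of different genes cannot be compared with each other without their lengths. Fewer copies per cell and fewer cells that express a gene cannot be told apart in these bulk libraries.

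The 6 libraries held 20456639 to 24717336 counts. Libraries of one line correlated at 0.979 to 0.992 in log2 CPM and libraries of different lines at 0.774 to 0.807, across genes, which are not independent replicates. The first principal component separated the lines and held 91.8% of the variance. Replicate 1 of the KPC controls had 5.11% of its counts in the ribosomal RNA gene Rn18s-rs5, against 0.141 to 0.547% in the other 5. Replicate 3 of the MB49 controls stood apart in another way: 40 genes had at least 10 counts there and 0 in the 11 other libraries, against 0 to 2 such genes in each of those. Among them were genes of the intestinal lining. A list of 20 such genes, written after this was seen, summed to 67.1 CPM in that library with all 20 genes at 3 counts or more, and to 0.727 and 0.990 CPM in replicates 1 and 2 of MB49. In the KPC controls the list summed to 21.5 to 23.4 CPM, with 2 or 3 of its genes at 3 counts or more, mainly Cdx2. The same MB49 library held 74 counts of Xist, the RNA of the silenced X chromosome of female cells, and the 5 other control libraries held 0. Where an MB49 level rests on this library, the value without it is given, and its part in those results was not tested further.

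Of the 14362 genes, 4735 (33.0%) were higher in KPC and 4937 (34.4%) lower, so that 67.3% differed in either direction. With a change of at least 2-fold also required, 2678 (18.6%) were higher and 2811 (19.6%) lower, 38.2% in all, and the median over all genes tested was -0.02. In 68.6% of the genes the 3 libraries of one line all lay above the 3 of the other. A gene taken from any list was therefore more likely to differ than not, and the gene lists below are read against these shares. Among lists with at least 10 tested genes, pancreatic and endoderm transcription factors, interferon-stimulated genes and Hox genes had the highest medians with the filter used, and basal-like pancreatic cancer markers, proteases and their inhibitors, the ERBB family and genes of G2 and mitosis the lowest.

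**Figure D1:**
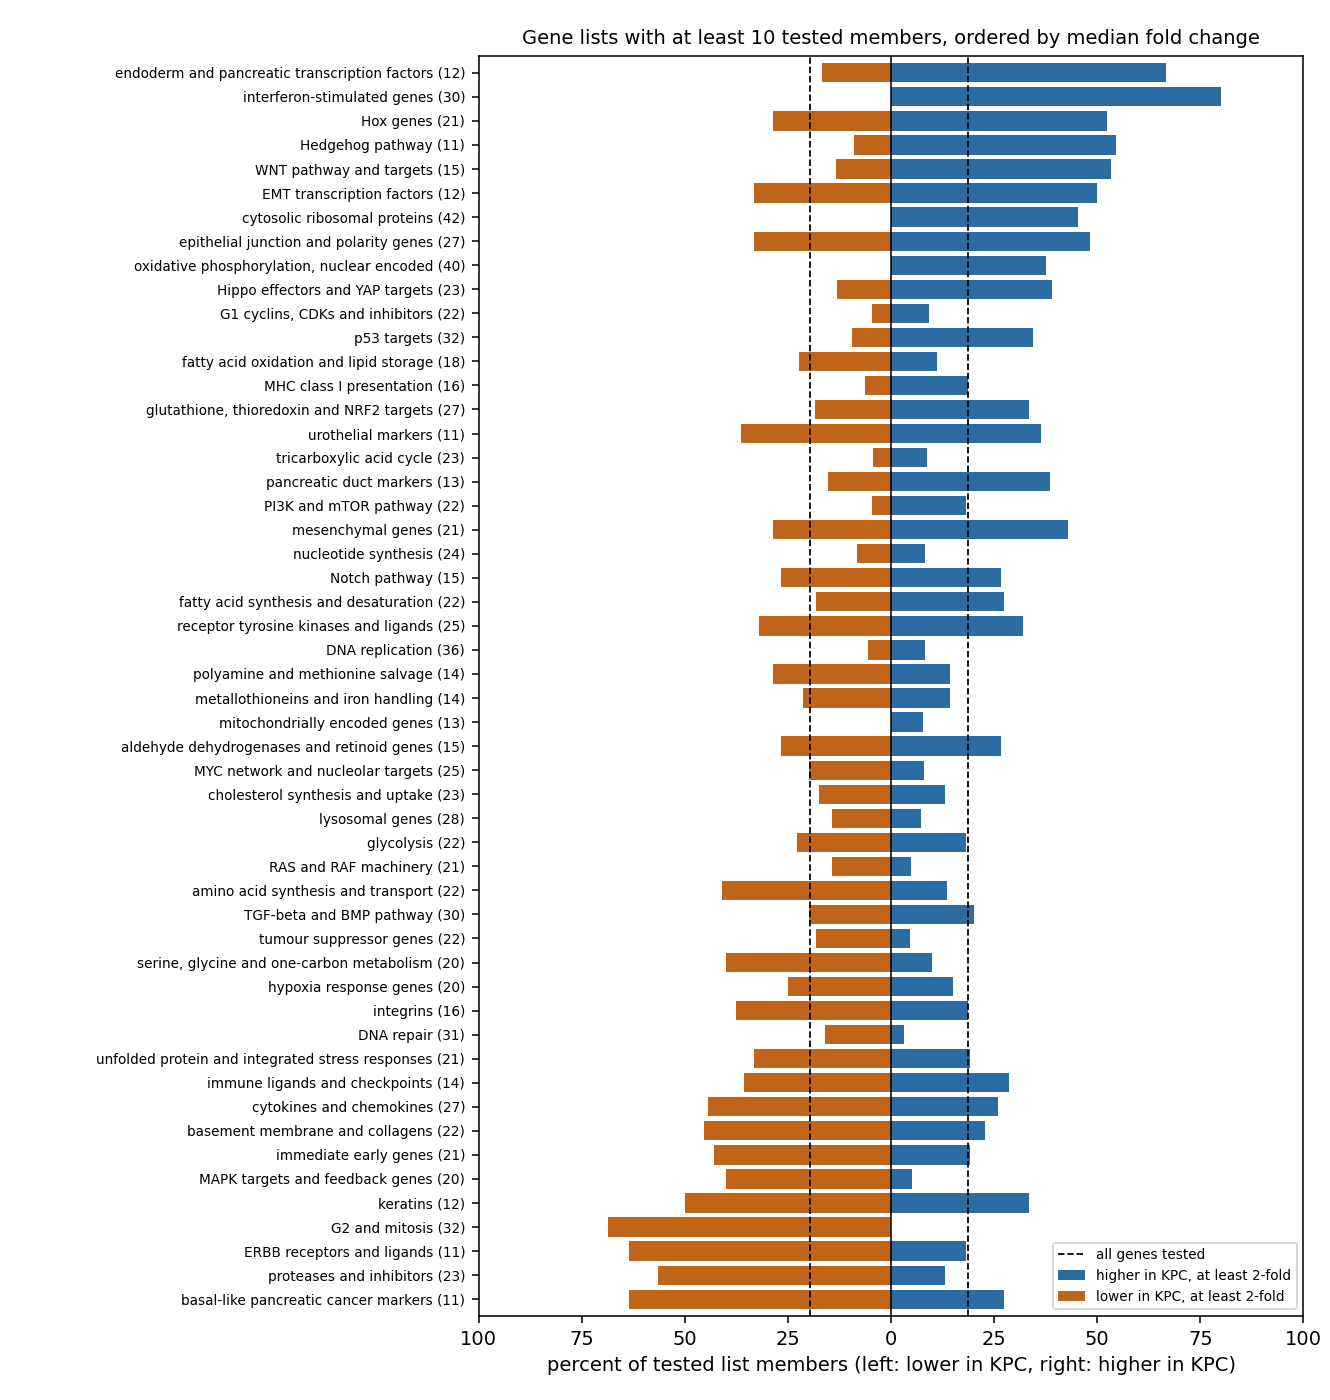
Percent of the tested members of each gene list (number in brackets) that were called at least 2-fold higher (right) or lower (left) in KPC controls than in MB49 controls, for lists with at least 10 tested members, ordered by their median fold change. Dashed lines mark the shares over all 14362 genes, 18.6% and 19.6%. Interferon-stimulated genes reach 24 of 30 on the right with none on the left, and genes of G2 and mitosis 22 of 32 on the left with none on the right.

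KPC cells carried the transcription factors of the foregut and pancreas that MB49 cells lacked, along with Pdx1, which MB49 cells shared at a lower level. Of 27 listed endoderm and pancreatic factors, 15 were too low to test, 8 were higher in KPC and 2 lower, and the median of the 12 tested was 4.01. That median was 6.61 without MB49 replicate 3 and 0 with no filter on low counts, when 21 of the factors were tested, while the 8 higher ones were 8 in every alternative. Pdx1, the factor that marks the pancreatic bud, stood at 72, 79.6 and 78.6 CPM in KPC and at 17.4, 14.9 and 19.7 CPM in MB49, a difference of 2.15 ± 0.13 (adjusted p = 8.48e-11). The libraries of the lines did not overlap, yet MB49 was not devoid of Pdx1 transcripts. Foxa2 reached 10.4, 13.6 and 11.4 CPM in KPC and had no count in any MB49 control, so that KPC exceeded it at least 308-fold, taking 3 counts in the 3 libraries together as the floor. The same held for Gata4, at 11 ± 0.330 CPM and at least 285-fold, and for Onecut2, at 11 ± 1.73 CPM and at least 284-fold. All 3 are factors of early foregut and pancreas development, and all 3 separated the lines completely. Gata6, the factor used to define the classical subtype of pancreatic cancer, had 14.4 ± 0.746 CPM in KPC, and its 5 MB49 counts were all in replicate 3. Without that library the bound was at least 264-fold.

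Among the forkhead factors the lines took different members. Foxa3 stood at 116, 96.1 and 102 CPM in MB49 and at 1.08, 1.12 and 0.817 CPM in KPC (-6.69 ± 0.19), and Foxa1, a factor of bladder lining and of endoderm, at 10.6 ± 1.52 against 3.20 ± 0.260 CPM (-1.72 ± 0.19). Both were thus lower in KPC, opposite to Foxa2, with no overlap between the lines. Sox9, a duct and progenitor factor, was measured at 112, 133 and 145 CPM in KPC and 111, 111 and 130.3 CPM in MB49. Its libraries overlapped, and its difference of 0.15 ± 0.14 missed the threshold (adjusted p = 0.368).

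The keratins split in the same uneven way. Krt19, the keratin most used to mark pancreatic duct, stood at 94.1, 79.5 and 68.4 CPM in KPC and 3.02, 1.91 and 6.64 CPM in MB49 (4.41 ± 0.32, adjusted p = 5.08e-08). MB49 replicate 3 was the highest of its group, and without it the difference was 5.03 ± 0.21. Krt7, found in duct and in bladder lining alike, measured 29.9, 28 and 27 CPM in KPC and 0, 0.0733 and 0.521 CPM in MB49. With only 2 counts left in MB49 replicates 1 and 2, the ratio without replicate 3 was 775 (214 to 6400.0), with a 95% exact interval that covers counting error only. Krt8 and Krt18, the pair of keratins of every simple epithelium, went the other way: Krt8 stood at 1270.0, 1068 and 1275 CPM in MB49 against 398, 352 and 338 CPM in KPC (-1.73 ± 0.14), and Krt18 at 1315 ± 129 against 355 ± 28.5 CPM (-1.89 ± 0.14). Per kilobase of transcript, Krt8 had 615 CPM in MB49 and 185 CPM in KPC, and Krt19 2.44 and 51.2, so that Krt8 exceeded Krt19 in both lines. Krt5 and Krt14, keratins of basal cells, had no count in KPC and 10 and 46 counts in MB49. Over the list, 4 of 12 tested keratins were higher in KPC and 6 lower.

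Markers of the organ of origin did not sort the lines cleanly. Of 20 urothelial markers 11 could be tested, with 5 higher and 4 lower in KPC and a median of 0.20. The uroplakins, which form the plaques of the bladder surface, were absent or nearly so in both lines: Upk1b had 0 counts in MB49 and 1 in KPC, Upk3a 0 and 0, Upk2 0 and 16, and Upk1a 19 and 21, each over 3 libraries. The defining markers of the bladder surface were thus missing from the MB49 libraries. Gata3 was measured at 14.2, 12.4 and 16.1 CPM in MB49 and 14.1, 16.5 and 18.5 CPM in KPC, with overlapping libraries and a difference of 0.20 ± 0.14 (adjusted p = 0.226). Pparg, a driver of bladder lining, stood at 10.4, 11.2 and 12 CPM in KPC, and all 5 of its MB49 counts fell in replicate 3, which left a bound of at least 204-fold without it. Tbx3 ran the other way, at 13, 14.8 and 14 CPM in MB49 and 0 counts in KPC (at least 349-fold higher in MB49), and Klf5, a zinc finger factor of epithelial progenitors, at 172 ± 8.998 against 70.1 ± 11.8 CPM (-1.29 ± 0.12).

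Of 15 pancreatic duct markers, 13 were tested, 6 were higher in KPC and 3 lower, with a median of 0.15. Bicc1, an RNA-binding protein of duct and kidney tubule, stood at 42.6, 54 and 60.9 CPM in KPC and 0.0363, 0 and 0.174 CPM in MB49, and without MB49 replicate 3 its ratio was 2880.0 (517 to 114000.0) from 1 count. Anxa4, an annexin of secretory epithelia, was lower in KPC, at 95.3 ± 2.52 against 196 ± 3.19 CPM (-1.04 ± 0.10). Cftr, the chloride channel that defines mature duct, had 0 counts in KPC and 10 in MB49, all of these in replicate 3. Of the lists of pancreatic cancer subtypes, the classical one was mostly too low to test: 13 of 18 markers fell under the filter. Of 11 tested basal-like markers 3 were higher and 7 lower in KPC. Tns4, an adhesion protein, stood at 207, 223 and 269 CPM in KPC and 0.0727, 0 and 0.130 CPM in MB49 (the difference ranged over 11.10 to 12.40 when single libraries were left out). Fam83a, a regulator of EGFR signalling, was lower in KPC, at 2.20 ± 0.353 against 67.8 ± 6.35 CPM (-4.94 ± 0.19), as was the dehydrogenase Dhrs9, at 0.639 ± 0.310 against 63.4 ± 15.2 CPM (-6.62 ± 0.28).

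Genes of epithelial junctions and polarity differed in nearly every tested case, in both directions. Of 27 tested, 14 were higher in KPC (13 of them at least 2-fold) and 11 lower (9 at least 2-fold), against the background of 33.0% and 34.4%. Cdh1, the cadherin of epithelial junctions, stood at 33.3, 37.9 and 45.7 CPM in KPC and at 0.0727, 0.0733 and 2.69 CPM in MB49, so that the KPC libraries were all higher and MB49 replicate 3 was the highest of its line. The difference was 5.47 ± 0.74 with all libraries and 8.96 ± 0.29 without that one. Spint2, an inhibitor of surface proteases, measured 93.2, 75.3 and 67 CPM in KPC, and in MB49 it had counts only in replicate 3, giving at least 1430.0-fold without it. Its relative Spint1 stood at 57.2 ± 1.84 against 0.290 ± 0.315 CPM (7.69 ± 0.31, and 8.96 ± 0.26 without MB49 replicate 3). Epcam, the adhesion molecule of most carcinomas, was nearly absent from both lines: it had 14 counts in KPC, and its 86 counts in MB49 were all in replicate 3.

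Other junction genes were those of MB49. Cldn3, a claudin of tight junctions, stood at 189, 153 and 292 CPM in MB49 and at 28.2, 23.5 and 20.1 CPM in KPC (-3.14 ± 0.21). Cgn, the tight junction scaffold cingulin, measured 47.3 ± 3.13 against 5.89 ± 0.881 CPM (-3.01 ± 0.14). Grhl2, a transcription factor that maintains epithelial genes, measured 9.68 ± 0.548 against 0.0921 ± 0.0441 CPM (-6.62 ± 0.38). MB49 thus had tight junction genes and Grhl2 with hardly any Cdh1, and KPC had Cdh1 with hardly any Grhl2.

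**Figure D2:**
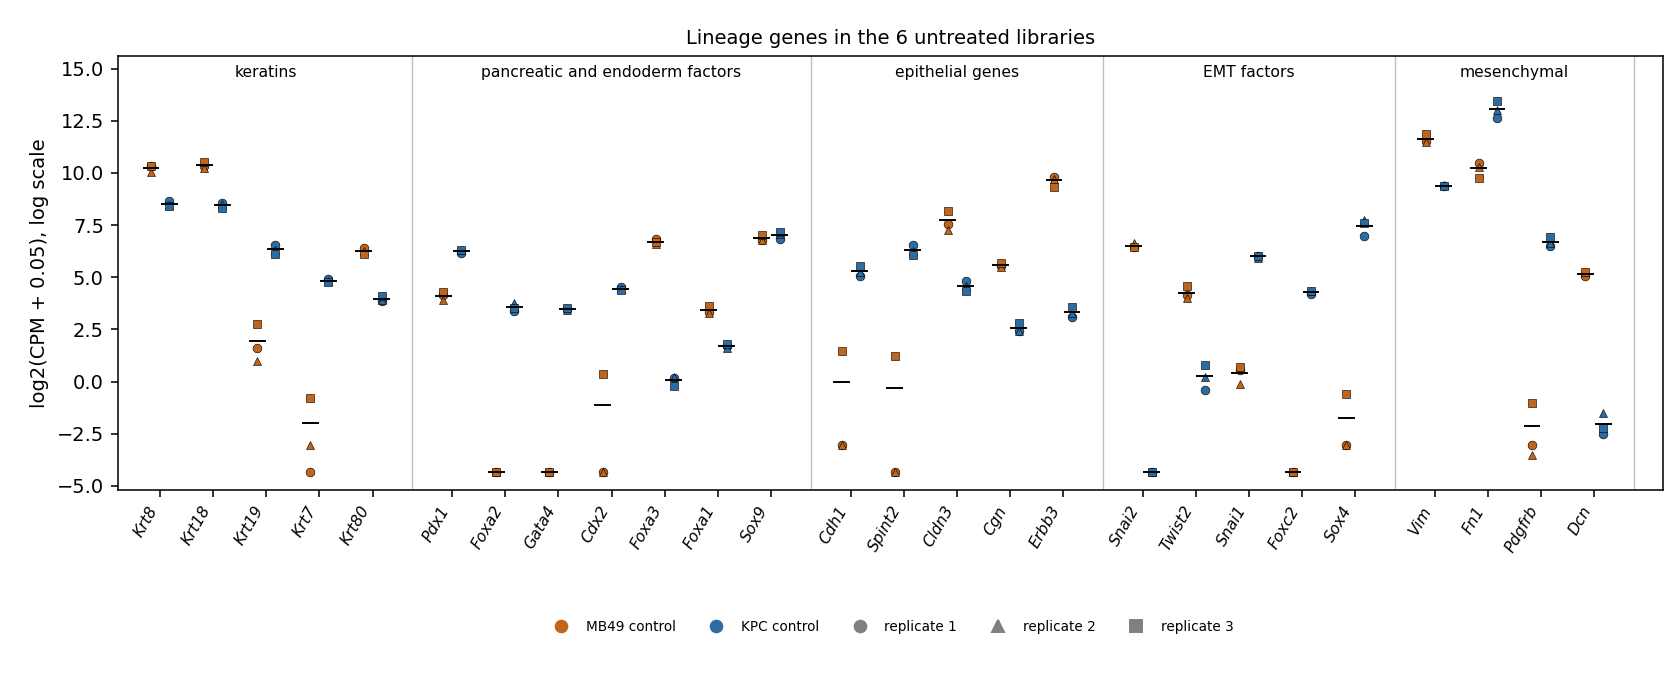
Level of 26 lineage genes in the 6 untreated libraries as log2(CPM + 0.05), a log scale, with a symbol per library (circle, triangle and square for replicates 1, 2 and 3) and a line at the mean of each group. In Krt19, Krt7, Cdx2, Cdh1, Spint2, Sox4 and Pdgfrb the square of MB49 replicate 3 lies above the other MB49 libraries.

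The factors that drive EMT were divided between the lines. Of 12 tested, 7 were higher in KPC and 4 lower, with a median of 1.11. Snai2 stood at 86, 98.2 and 87 CPM in MB49 and had no count in KPC, at least 2270.0-fold higher in MB49. Twist2 was at 19 ± 3.87 CPM in MB49 and 1.17 ± 0.485 CPM in KPC (-4.02 ± 0.26), Zeb1 at 48.6 ± 8.14 and 22.5 ± 3.58 CPM (-1.11 ± 0.15), and Klf8 at 11.3 ± 2.08 CPM with no count in KPC (at least 286-fold). Snai1, the close relative of Snai2, was the KPC member, at 64.9, 61.2 and 64.9 CPM against 1.42, 0.880 and 1.56 CPM in MB49 (5.63 ± 0.18). Foxc2 stood at 18.4, 20.4 and 20.1 CPM in KPC with no MB49 count (at least 510.0-fold), and Sox4 at 124, 212 and 195 against 0.0727, 0.0733 and 0.608 CPM (9.54 ± 0.44, and 11.14 ± 0.38 without MB49 replicate 3). Neither line was free of EMT factors. Snai2, Klf8 and Foxc2 each had counts in 1 line only, while Zeb1 was expressed in both.

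Mesenchymal genes were likewise split, 10 of 21 higher and 7 lower in KPC, with a median of 0.13 that was 1.84 without MB49 replicate 3 and -1.19 with no filter on low counts. Vim, the intermediate filament of mesenchymal cells, stood at 2978, 2878 and 3737 CPM in MB49 and 653, 688 and 668 CPM in KPC (-2.26 ± 0.13). Fn1, the matrix protein fibronectin, stood at 6295, 8315 and 11130.0 CPM in KPC and 1421, 1263 and 875 CPM in MB49 (2.85 ± 0.24), the reverse order, with no overlap in either gene. Pdgfrb, a receptor of mural cells and fibroblasts, measured 90.7, 101 and 119.9 CPM in KPC and 0.0727, 0.0367 and 0.434 CPM in MB49, a ratio of 1900.0 (649 to 9200.0) without MB49 replicate 3. Tnc, the matrix protein tenascin C, measured 262 ± 55 against 0.650 ± 0.527 CPM (8.70 ± 0.35, and 9.54 ± 0.28 without that library). On the side of MB49 stood Dcn, a small matrix proteoglycan, at 36.1 ± 2.94 against 0.196 ± 0.0917 CPM (-7.46 ± 0.27), S100a4, at 346 ± 117 against 68.4 ± 13.4 CPM (-2.34 ± 0.23), and the adhesion molecule Ncam1, at 35.4 ± 1.53 against 3.98 ± 0.685 CPM (-3.15 ± 0.16).

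Markers of other cell types were low, apart from a few genes that tumour cells can express themselves. The 10 fibroblast markers summed to 179.9 to 195.5 CPM in MB49 and 13.3 to 18.1 CPM in KPC, led by Pdpn, at 132, 130.3 and 120.3 CPM in MB49 with no count in KPC (at least 3210.0-fold). Of the other 4 tested, Dcn was lower in KPC and 3 were not called. Immune markers summed to 0.477 to 1.65 CPM in MB49 and 0.245 to 0.374 CPM in KPC, with 8 of 21 at 0 in both lines, among them the leukocyte gene Ptprc. Acinar and islet markers summed to 1.74 to 3.82 CPM in MB49 and 4.78 to 7.11 CPM in KPC, with 9 of 15 at 0 in both. Endothelial markers summed to 3.89 to 6.42 and 7.66 to 9.23 CPM. Neural markers summed to 165.8 to 183.6 CPM in MB49 and 47.2 to 59.3 CPM in KPC, led by Mbp, which was lower in KPC (-1.19). Also among these markers, Tubb3, a tubulin of neurons and many carcinomas, stood at 63, 50.9 and 66.6 CPM in MB49. It had 2 counts in KPC, a ratio of 2250.0 (622 to 18600.0). The part of other cells in any difference was not tested.

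Hox genes and a few imprinted genes also differed between the lines. Of 21 tested Hox genes, which set position along the body axis, 12 were higher and 6 lower in KPC, with a median of 1.44. Hoxa5, an anterior member of the A cluster, was higher in KPC, at 16.6 ± 2.58 against 1.49 ± 0.589 CPM (3.49 ± 0.25). Hoxb13, the most posterior gene of the B cluster, stood at 10.1, 10.7 and 12.4 CPM in MB49 with no count in KPC (at least 276-fold), and Hoxb9 at 52.1 ± 4.35 against 2.35 ± 0.371 CPM (-4.46 ± 0.20). Of 26 listed imprinted genes, which are read from the copy of one parent, 17 were too low to test, and of the 9 tested 5 were higher and 1 lower in KPC, so that 66.7% were called against 67.3% of all genes. Igf2, the imprinted fetal growth factor, stood at 386, 429.7 and 410.1 CPM in KPC, and in MB49 its 7 counts were all in replicate 3, so that it was at least 7480.0-fold higher without that library. Its clearance receptor Igf2r was also higher in KPC, at 139, 195 and 239 against 32.9, 30.5 and 24.3 CPM (2.71 ± 0.18).

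The sex chromosomes told the lines apart by transcripts alone. Ddx3y had 396 counts in MB49 and 0 in KPC (at least 128-fold higher in MB49), and Eif2s3y 582 and 0 (at least 187-fold). Kdm5d had 531 counts in MB49 and 14 in KPC (-5.16 ± 0.40). All 4 tested Y genes were lower in KPC, while Xist had no count in KPC or in replicates 1 and 2 of MB49. The KPC libraries thus had little of the Y genes and no Xist.

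The oncogenes and tumour suppressors by which such tumours are known differed moderately. Of 22 tested tumour suppressors, 4 were higher and 11 lower in KPC, with a median of -0.29. Trp53 stood at 370.5, 341 and 359.9 CPM in KPC and 169.9, 142 and 157 CPM in MB49 (1.19 ± 0.12, adjusted p = 1.5e-07). Smad4, the transducer of TGF-beta signals that pancreatic cancers often lose, stood at 21.6, 26.8 and 27.6 CPM in KPC and 79.3, 81.8 and 76.9 CPM in MB49 (-1.65 ± 0.12). Cdkn2a, which encodes p16 and p19, had 4 counts in KPC and 10 in MB49 over 3 libraries, and its neighbour Cdkn2b 2 and 9. Both were too low to test in either line, whereas Mtap, a gene close to them, was well expressed, at 425, 458 and 470.3 CPM in MB49 and 132, 129 and 119 CPM in KPC (-1.84 ± 0.11).

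Genes of the RAS pathway were called about as often as genes at large, more of them lower than higher in KPC. The transcripts that ERK signalling induces were, in most called cases, lower in KPC. Of 21 tested genes of RAS and RAF signalling, 4 were higher and 10 lower, with a median of -0.21. Thus 66.7% were called against 67.3% of all genes, and 19% against 38.2% when at least 2-fold was required. Nras was lower in KPC, at 39.5 ± 2.15 against 58.5 ± 3.45 CPM (-0.57 ± 0.10), and Hras was higher, at 53.2 ± 6.17 against 36.7 ± 5.09 CPM (0.54 ± 0.13). Rasa1, which switches RAS off, was also lower in KPC, at 4.91, 4.42 and 4.74 against 30.5, 33.4 and 22.8 CPM (-2.62 ± 0.20), and Braf likewise, at 9.28 ± 0.380 against 21.9 ± 3.88 CPM (-1.24 ± 0.15). The kinases downstream were higher, Map2k1 at 129 ± 10.8 against 78.8 ± 6.66 CPM (0.71 ± 0.11) and Map2k2 at 167 ± 9.24 against 90.8 ± 12.4 CPM (0.88 ± 0.13).

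Of 20 ERK targets and feedback genes, all tested, 2 were higher and 13 lower in KPC, 8 of them at least 2-fold, and the median was -0.86. Dusp6, the phosphatase that ERK induces against itself, stood at 182, 168 and 175 CPM in MB49 and 51.5, 68.1 and 76.8 CPM in KPC (-1.42 ± 0.14, adjusted p = 9.99e-08). Its relative Dusp5 stood at 178, 153 and 174 against 33.6, 32 and 33.2 CPM (-2.35 ± 0.14), and Ier3 at 312 ± 45.9 against 115 ± 15.9 CPM (-1.44 ± 0.14). The 2 that were higher in KPC were the RAS pathway inhibitors Spry1, at 63.8 ± 3.97 against 34.2 ± 3.58 CPM (0.90 ± 0.12), and Spry4, at 13.5 ± 0.498 against 6.30 ± 0.486 CPM (1.09 ± 0.15). Ccnd1, the D-type cyclin that growth signals induce, stood at 784 ± 18 CPM in MB49 and 795 ± 16.3 CPM in KPC, with a difference of 0.02 ± 0.10 (adjusted p = 0.878).

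The epidermal growth factor family was stronger in MB49 in 8 of 11 tested members, with 2 higher in KPC and a median of -1.41. Among receptors, Erbb3, the partner of ERBB2, stood at 906, 838 and 640.4 CPM in MB49 and 8.45, 9.84 and 11.9 CPM in KPC (-6.30 ± 0.20), and Egfr at 243, 261 and 183 against 74.3, 79.4 and 95.7 CPM (-1.46 ± 0.14). No library of one line reached the other in either gene. The ligands did not all follow. Ereg was higher in MB49, at 75.9 ± 11.5 against 8.44 ± 1.06 CPM (-3.17 ± 0.16), and Btc at 7.38 ± 1.03 against 0.846 ± 0.314 CPM (-3.12 ± 0.28). Areg, a ligand of EGFR, was the KPC member, at 82.4, 69.7 and 63.5 CPM against a single count in MB49, a ratio of 5580.0 (1000.0 to 221000.0). Nrg1, a ligand of ERBB3, was also higher in KPC, at 143, 163 and 175 against 45.2, 43.6 and 41.3 CPM (1.89 ± 0.11). KPC thus had more of this ligand than MB49 and less of its receptor.

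Other receptor tyrosine kinases and their ligands showed a like exchange, with 10 of 25 higher, 9 lower and a median of 0.09. Met, the receptor of hepatocyte growth factor, stood at 147 ± 31.5 CPM in MB49 and 53.9 ± 12.1 CPM in KPC (-1.45 ± 0.17). Vegfc, a growth factor of lymph vessels, stood at 73, 77.6 and 75.1 CPM in MB49 with no count in KPC (at least 1890.0-fold), and Gas6, the ligand of AXL, at 55.7 ± 3.79 CPM in MB49 with 1 count in KPC, a ratio of 4190.0 (751 to 165000.0). Axl itself was near even, at 1187, 1041 and 924 CPM in MB49 and 1128, 1381 and 1616 CPM in KPC; its libraries overlapped and its difference of 0.39 ± 0.15 was called (adjusted p = 0.0341) but not without MB49 replicate 2 or 3 or without KPC replicate 2 or 3 (largest adjusted p = 0.172). Pdgfc was higher in KPC, at 41 ± 4.87 against 10.7 ± 1.42 CPM (1.93 ± 0.15), beside the Pdgfrb transcripts given above.

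WNT and Hedgehog genes were more often higher than lower in KPC. Of 15 tested WNT genes 10 were higher and 2 lower (median 1.13, -0.02 over all genes). Notum, a WNT-inactivating enzyme that WNT signalling itself induces, stood at 26.8, 26.7 and 27 CPM in KPC and had no count in MB49 (at least 696-fold). Tcf7, a transcription factor of the pathway, stood at 27.6, 24.8 and 29.4 CPM with MB49 counts only in replicate 3 (at least 497-fold without it), and the ligand Wnt11 at 6.54 ± 0.673 CPM with 2 counts in MB49, a ratio of 255 (70.2 to 2110.0). Wnt10a was higher in MB49, at 154, 126 and 195 against 51.3, 54.6 and 56 CPM (-1.55 ± 0.15). Of 11 tested Hedgehog genes 8 were higher in KPC and 1 lower (median 1.28), among them the co-receptor Cdon, at 37.7, 40.05 and 51.4 against 4.36, 5.53 and 3.90 CPM (3.22 ± 0.17), and the co-receptor Gas1, at 30.1 ± 3.81 CPM with MB49 counts only in replicate 3 (at least 550.0-fold without it).

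The Notch pathway was even in number, 6 higher and 6 lower of 15, and uneven in its members. Of the ligands, Jag2 stood at 258, 293 and 314 CPM in KPC and 1.38, 0.916 and 1.91 CPM in MB49 (7.70 ± 0.23), whereas Jag1 stood at 228, 224 and 173 CPM in MB49 and 13.3, 21.5 and 22.3 CPM in KPC (-3.45 ± 0.18). Per kilobase, Jag2 had 56.5 CPM in KPC and Jag1 37.1 in MB49. Notch3, a receptor, was the KPC gene, at 48.4 ± 15.3 against 0.760 ± 0.294 CPM (5.99 ± 0.33), and Dll1, a ligand, that of MB49, at 12.7 ± 0.338 against 1.60 ± 0.543 CPM (-2.98 ± 0.21). The enzymes that add sugar to Notch also differed, Rfng being higher in KPC (1.27 ± 0.14) and Mfng lower, at 58.2 ± 4.26 CPM in MB49 with 4 counts in KPC (a difference of -11.20 to -9.43 over single libraries left out).

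Of 30 tested genes of TGF-beta and BMP signalling 7 were higher and 14 lower, with a median of -0.28. The ligands Bmp4 and Bmp7 were higher in KPC. Bmp4 stood at 81.7, 87.8 and 95 CPM in KPC with MB49 counts only in replicate 3 (at least 1610.0-fold without it), and Bmp7 at 129, 121 and 148 CPM with 3 counts in MB49, a ratio of 3430.0 (1170.0 to 16600.0), or 7250.0 (1300.0 to 286000.0) without MB49 replicate 3, which held 2 of the 3. The ligand Tgfb2 was higher in MB49, at 27.9, 29.98 and 25.8 CPM with no count in KPC (at least 702-fold), and so was Tgfbi, a matrix protein named for its induction by TGF-beta, at 39.2, 37.2 and 35.1 CPM with 3 counts in KPC, a ratio of 935 (320.0 to 4540.0). Id3, a target of BMP signalling, was lower in KPC, at 3.34 ± 0.701 against 27.9 ± 7.32 CPM (-3.06 ± 0.21). Smad6, on the same list, went the other way, with 761 counts in KPC. Without MB49 replicate 3, 3 counts were left in MB49, a ratio of 185 (63 to 898).

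Hippo effectors and YAP targets differed in 22 of 23 tested genes, 13 higher and 9 lower (median 0.50). Tead2, a DNA-binding partner of YAP, stood at 79.4, 83.3 and 88.9 CPM in KPC with MB49 counts only in replicate 3 (at least 1530.0-fold without it). The 1 gene not called was Yap1 itself, at 94.8 ± 1.35 CPM in MB49 and 84.5 ± 4.42 CPM in KPC, a difference of -0.17 ± 0.10 (adjusted p = 0.141). The paired YAP targets Ccn1 and Ccn2 went opposite ways: Ccn1 stood at 662, 597 and 619 CPM in MB49 and 228, 216 and 233 CPM in KPC (-1.47 ± 0.13), and Ccn2 at 1.38, 1.80 and 1.82 and 6.70, 7.75 and 7.84 CPM (2.16 ± 0.18). Of 22 PI3K and mTOR genes 8 were higher and 6 lower (median 0.14), with the insulin receptor substrates Irs1, at 27.8 ± 2.67 against 2.89 ± 0.174 CPM (3.26 ± 0.15), and Irs2, at 40.01 ± 7.07 against 3.74 ± 0.193 CPM (3.42 ± 0.23), higher in KPC, and the phosphatase Inpp4b lower, at 0.160 ± 0.148 against 9.44 ± 1.72 CPM (a difference of -6.81 to -5.46 over single libraries left out).

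Of 32 p53 targets, 18 were higher and 7 lower in KPC, with a median of 0.46; 11 of the 18 were at least 2-fold. Phlda3, an inhibitor of AKT that p53 induces, stood at 471, 424 and 387 CPM in KPC and 0.400, 0.147 and 0.477 CPM in MB49 (10.29 ± 0.27, adjusted p = 4.69e-15). Cdkn1a, the gene of p21, stood at 1043, 921 and 826 against 496, 435 and 557 CPM (0.91 ± 0.13), and Psrc1, a spindle protein, at 146 ± 10.01 against 17.6 ± 2.79 CPM (3.05 ± 0.13). Plk2, a p53-induced kinase, was lower in KPC, at 780.0 ± 58.5 against 1770.0 ± 74.7 CPM (-1.18 ± 0.12), as was Eda2r, at 16.6 ± 1.17 against 34.6 ± 3.49 CPM (-1.06 ± 0.15). Of 25 MYC network genes 9 were higher and 9 lower (median -0.05). Myc stood at 1348, 1246 and 1450.0 CPM in MB49 and 582, 613 and 701 CPM in KPC (-1.09 ± 0.13), and its target Odc1, the first enzyme of polyamine synthesis, at 2349, 2211 and 2124 against 482, 456 and 444 CPM (-2.27 ± 0.12). Fbl, a nucleolar MYC target, went the other way, at 311 ± 42.5 CPM in KPC against 157 ± 43 CPM (0.99 ± 0.16).

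Glycolytic genes were divided between the lines, and genes of the response to low oxygen were more often lower than higher in KPC. Of 22 glycolytic genes 8 were higher and 9 lower (median -0.10), and of 20 hypoxia genes 4 were higher and 10 lower (median -0.37). Thus 77.3% of the glycolytic and 70% of the hypoxia genes were called, against 67.3% of all genes. With at least 2-fold required the shares were 40.9% and 40%, near the 38.2% of all genes. Slc2a1, the main glucose transporter of tumour cells, stood at 384, 341 and 379 CPM in MB49 and 74.2, 84 and 83 CPM in KPC (-2.19 ± 0.13). Pfkfb3, which speeds glycolysis, stood at 86 ± 14.5 against 29.1 ± 5.56 CPM (-1.56 ± 0.16), while its relative Pfkfb4 was higher in KPC, at 20.03 ± 1.39 against 5.56 ± 0.650 CPM (1.85 ± 0.14). The enolases were exchanged, Eno1 at 3167, 2963 and 2697 CPM in KPC against 1473, 1238 and 1551 CPM (1.05 ± 0.15) and Eno2 at 16.9 ± 0.859 against 83.8 ± 8.65 CPM (-2.31 ± 0.12). Carbonic anhydrases were exchanged too, Car9 being the MB49 gene at 19.1 ± 1.68 against 1.19 ± 0.181 CPM (-4.0 ± 0.18) and Car12 the KPC gene at 9.23 ± 0.804 against 0.230 ± 0.0909 CPM (5.29 ± 0.25). Nos2, the inducible nitric oxide synthase, stood at 102, 84.8 and 77.6 CPM in MB49 and 2.75, 2.66 and 4.004 CPM in KPC (-4.81 ± 0.21).

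Nuclear genes of oxidative phosphorylation were higher in KPC in 30 of 40 cases and lower in 2, with a median of 0.71; 15 were at least 2-fold higher and none at least 2-fold lower. Ndufb9, a subunit of complex I, stood at 399, 321 and 246 CPM in KPC and 71.7, 63.5 and 97.4 CPM in MB49 (2.05 ± 0.18). The 2 lower ones were the core subunits Ndufs1, at 27 ± 2.94 against 47.4 ± 5.28 CPM (-0.81 ± 0.15), and Uqcrc2, at 68.1 ± 2.94 against 101 ± 6.66 CPM (-0.57 ± 0.11). Short transcripts as a class were higher in KPC: over all genes the median went from 0.50 in the eighth of genes of median length 831 bases to -0.36 in the eighth of 6961 bases. The oxidative phosphorylation genes, of median length 849.5 bases, lay 0.48 above the median of genes of their own length. Of the 13 genes encoded in the mitochondrial DNA 12 were not called (median -0.02), although with no filter on low counts 4 were higher and 2 lower. The other, mt-Co2, is listed at 0 in all 3 MB49 libraries and at 32.1, 21.9 and 27.2 CPM in KPC, and its call was lost when any 1 of the 6 libraries was left out (largest adjusted p = 0.0729). Whether this 0 is a level or a failed estimate was not tested. Of 23 genes of the tricarboxylic acid cycle 7 were higher and 3 lower in KPC (median 0.16), with Sdhb higher in KPC at 92.2 ± 19.9 against 36 ± 4.44 CPM (1.36 ± 0.15) and Pcx, which feeds the cycle from pyruvate, lower at 4.91 ± 0.962 against 21.5 ± 2.29 CPM (-2.12 ± 0.19).

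Among genes of fatty acid synthesis, 2 desaturases and a malic enzyme were nearly absent from MB49. Fads2, a desaturase that starts the synthesis of long polyunsaturated fatty acids, stood at 215, 194 and 208 CPM in KPC and 0.291, 0.147 and 0.781 CPM in MB49 (9.03 ± 0.29, and 9.84 ± 0.27 without MB49 replicate 3). Fads1, the next desaturase, measured 133, 128 and 138 against 0, 0.0733 and 0.477 CPM, a ratio of 3650.0 (1010.0 to 30100.0) without that library. Me1, the malic enzyme that supplies reducing power, measured 72.8, 66.2 and 68.6 CPM with 3 counts in MB49, a ratio of 1790.0 (613 to 8700.0). All 3 of these counts were in MB49 replicate 3, and without it the bound was at least 1260.0-fold. Over the list of fatty acid synthesis 8 of 22 genes were higher and 7 lower in KPC (median 0.10), with the activating enzymes Acsl5, at 265 ± 21.7 CPM in MB49 against 89.8 ± 2.87 CPM (-1.56 ± 0.11), and Acsl3, at 43.8 ± 4.68 against 15.1 ± 1.45 CPM (-1.54 ± 0.16), on the MB49 side. In fatty acid oxidation and storage 10 of 18 were higher and 5 lower (median 0.38): the mitochondrial dehydrogenase Acadvl stood at 293 ± 25 CPM in KPC against 84 ± 7.27 CPM (1.80 ± 0.12), and Plin2, the coat of lipid droplets, at 741 ± 50.6 CPM in MB49 against 185 ± 14.2 CPM (-2.0 ± 0.12). Cholesterol genes were even, 7 higher and 8 lower of 23 (median -0.07), with the synthetic enzyme Fdps higher in KPC, at 242 ± 28.5 against 82.7 ± 9.29 CPM (1.55 ± 0.13).

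Amino acid supply leaned to MB49. Of 22 tested genes of amino acid synthesis and transport 6 were higher and 11 lower in KPC, 9 of these at least 2-fold (median -0.27). Slc7a11, the cystine importer, stood at 59.3, 63.3 and 40.5 CPM in MB49 and 5.70, 5.13 and 5.07 CPM in KPC (-3.36 ± 0.16). Slc1a5, a glutamine importer, stood at 627, 568 and 625 against 172, 179 and 175 CPM (-1.79 ± 0.11), and Slc1a4 at 359 ± 42.1 against 111 ± 8.13 CPM (-1.70 ± 0.14). Glul, which makes glutamine, was higher in KPC, at 44.7 ± 3.89 against 11.8 ± 0.758 CPM (1.92 ± 0.13), as was the proline oxidase Prodh, at 23.3, 25.7 and 23.7 against 0.0363, 0.110 and 0.260 CPM (7.49 ± 0.33, and 8.27 ± 0.35 without MB49 replicate 3). Serine and one-carbon genes followed the same lean, 7 higher and 10 lower of 20 (median -0.32), with Mat2a, which makes the methyl donor of the cell, at 12.5 ± 0.618 CPM in KPC against 73.9 ± 5.56 CPM (-2.57 ± 0.19), and the folate enzymes Aldh1l1, at 0.240 ± 0.0134 against 11.1 ± 0.989 CPM (-5.50 ± 0.25), and Aldh1l2, at 41.4 ± 7.12 against 219.5 ± 25.1 CPM (-2.41 ± 0.14).

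Redox and metal genes were divided by gene more than by pathway. Of 27 glutathione, thioredoxin and NRF2 genes 13 were higher and 7 lower in KPC (median 0.31). Hmox1, the heme oxygenase, stood at 264, 226 and 229 CPM in KPC and 64.6, 56.7 and 58.8 CPM in MB49 (2.0 ± 0.13), and Gclm, a subunit of the enzyme that starts glutathione synthesis, at 45.9 ± 4.32 against 13.5 ± 0.880 CPM (1.76 ± 0.11). Nqo1, another NRF2 target, was nevertheless lower in KPC, at 0.291, 0.561 and 0.490 against 11, 9.13 and 10.7 CPM (-4.49 ± 0.19), and Gsta1 had no count there (at least 167-fold higher in MB49). Aldh3a1, an aldehyde dehydrogenase of epithelia, stood at 132 ± 13.1 CPM in MB49 against 8.21 ± 0.324 CPM (-4.01 ± 0.14), and Aldh2 at 814 ± 52.4 CPM in KPC against 345 ± 66.4 CPM (1.24 ± 0.15). The metallothionein Mt2 was lower in KPC, at 8.30 ± 2.64 against 118 ± 37.2 CPM (-3.84 ± 0.27), and the ferritin chain Ftl1 higher, at 4656 ± 748 against 1439 ± 238 CPM (1.69 ± 0.15). Among lysosomal genes, 8 higher and 11 lower of 28, Ctsz was nearly absent from MB49, at 187 ± 3.75 against 0.410 ± 0.585 CPM (8.93 ± 0.48, and 11.21 ± 0.29 without MB49 replicate 3), and Ctsl was higher in MB49, at 1077 ± 108 against 238 ± 6.73 CPM (-2.18 ± 0.12).

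The cell cycle genes split by phase. Nearly all genes of G2 and mitosis were lower in KPC, while genes of DNA replication were not. Of 32 genes of G2 and mitosis, all tested, 29 were lower, 22 of them at least 2-fold, and 1 was higher, with a median of -1.40, against 34.4% lower and a median of -0.02 over all genes. Of 36 replication genes 16 were higher and 8 lower, with a median of 0.08, and of 22 G1 cyclins, kinases and inhibitors 11 were higher and 6 lower, with a median of 0.47. The lower count for G1 was 3 without MB49 replicate 2. Measured against genes of the same length, the median of the mitotic genes was -1.21 and that of the replication genes 0.11.

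Many mitotic genes share 2 short promoter elements, the cell cycle homology region (CHR), with letters TTTGAA, and the CCAAT box, through which the DREAM and MuvB complexes and NF-Y act on their timing. The promoters of 3 mitotic genes are shown because they hold the CHR letters, given in capitals, which may stand on either strand; they are the 250 bases before the start, on the strand of the gene, from RefSeq, build GRCm38.p6. Mki67 lies on the minus strand at chr7:135716380-135716629, Kif2c on the minus strand at chr4:117178773-117179022 and Prc1 on the plus strand at chr7:80294226-80294475. Prc1 has 2 promoters in RefSeq, and the one not shown holds no CHR letters in this window.
Mki67: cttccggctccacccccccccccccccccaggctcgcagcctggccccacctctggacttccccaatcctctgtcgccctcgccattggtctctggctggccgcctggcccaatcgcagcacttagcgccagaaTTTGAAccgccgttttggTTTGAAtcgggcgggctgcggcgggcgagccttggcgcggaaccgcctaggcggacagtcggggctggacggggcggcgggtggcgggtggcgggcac
Kif2c: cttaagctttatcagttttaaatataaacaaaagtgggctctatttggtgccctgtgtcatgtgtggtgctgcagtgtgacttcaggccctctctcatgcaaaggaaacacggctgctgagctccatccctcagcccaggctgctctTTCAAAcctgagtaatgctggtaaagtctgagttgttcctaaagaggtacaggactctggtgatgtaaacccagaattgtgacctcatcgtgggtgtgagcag
Prc1: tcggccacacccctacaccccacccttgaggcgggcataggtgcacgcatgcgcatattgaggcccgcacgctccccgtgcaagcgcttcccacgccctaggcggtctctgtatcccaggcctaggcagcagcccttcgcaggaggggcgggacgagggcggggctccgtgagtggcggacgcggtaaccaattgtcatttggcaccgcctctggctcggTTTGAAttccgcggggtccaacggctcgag
The RefSeq table held promoters for 26 of the 32 mitotic genes, and 10 of these (38.5%) had TTTGAA within 250 bases before the start on either strand, against 5 of 31 replication genes (16.1%) and 18.3% of all 27025 genes in the table. The CCAAT letters were found in 21 of the 26 (80.8%), in 20 of 31 replication genes (64.5%) and in 37.5% of all genes. The 3 promoters shown are of genes lower in KPC. The CHR letters were also found in Cdc20, which was higher in KPC (0.60), and in Ube2c, which was not called (-0.17). None were found in Cenpf (-2.64) and Ccnb1 (-2.39), both lower in KPC. Whether the letters go with the direction of change was not tested. These matches describe the sequence and not binding.

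Mki67, the proliferation marker, stood at 62.1, 68.7 and 38 CPM in MB49 and 11.4, 10.8 and 11.3 CPM in KPC (-2.33 ± 0.24, adjusted p = 7.55e-07). Ccnb1, the cyclin that drives entry into mitosis, stood at 55.1, 61.2 and 51.4 against 11, 10.2 and 10.8 CPM (-2.39 ± 0.12), and Cenpf, a kinetochore protein, at 12.6, 13.7 and 8.46 against 1.58, 2.02 and 1.96 CPM (-2.64 ± 0.23). In each the lines were fully apart. Kif2c, a kinesin that takes microtubules apart, measured 32.1 ± 1.73 CPM in MB49 and 9.10 ± 1.41 CPM in KPC (-1.82 ± 0.13), and Prc1, which bundles the midzone, 142 ± 13.3 and 45.6 ± 2.07 CPM (-1.64 ± 0.14). The exception was Cdc20, which activates the anaphase complex and was higher in KPC, at 95.7, 88.2 and 80.9 against 58.1, 49.9 and 67.2 CPM (0.60 ± 0.13). Ube2c, the ubiquitin carrier of the same complex, at 91.7 ± 9.68 and 81.6 ± 16.6 CPM (-0.17 ± 0.13), and Mad2l1, its checkpoint inhibitor, at 17.3 ± 2.29 and 13.4 ± 1.77 CPM (-0.37 ± 0.17), were not called.

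Within replication the genes were divided. Rrm2, the regulated subunit of ribonucleotide reductase, stood at 120.2, 130.0 and 128 CPM in KPC and 48.6, 46.4 and 47.7 CPM in MB49 (1.41 ± 0.10), and Cdc6, which loads the helicase, at 17.5 ± 0.948 against 6.58 ± 1.03 CPM (1.41 ± 0.14). Tk1, the thymidine kinase of S phase, went the other way, at 169, 149 and 164 CPM in MB49 and 43.2, 34.8 and 32.9 CPM in KPC (-2.12 ± 0.12), as did Cdc45, at 49.3 ± 3.14 against 27.2 ± 1.23 CPM (-0.86 ± 0.12). Their regulators divided too: the activator E2f1 stood at 54.7 ± 5.22 CPM in KPC against 24 ± 2.29 CPM (1.19 ± 0.14), while E2f2 stood at 31.2 ± 3.29 CPM in MB49 against 11.2 ± 0.949 CPM (-1.48 ± 0.14). The inhibitors Cdkn1b, at 52.8 ± 0.611 against 28.1 ± 5.28 CPM (0.91 ± 0.14), and Rbl2, at 24.6 ± 4.79 against 10.5 ± 2.21 CPM (1.22 ± 0.16), were higher in KPC, beside Cdkn1a given above. Of 31 DNA repair genes 7 were higher and 15 lower (median -0.40), with Atr at 2.35 ± 0.406 CPM in KPC against 7.02 ± 2.02 CPM (-1.58 ± 0.27) and Brca2 at 2.48 ± 0.449 against 5.55 ± 1.64 CPM (-1.16 ± 0.24).

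**Figure D3:**
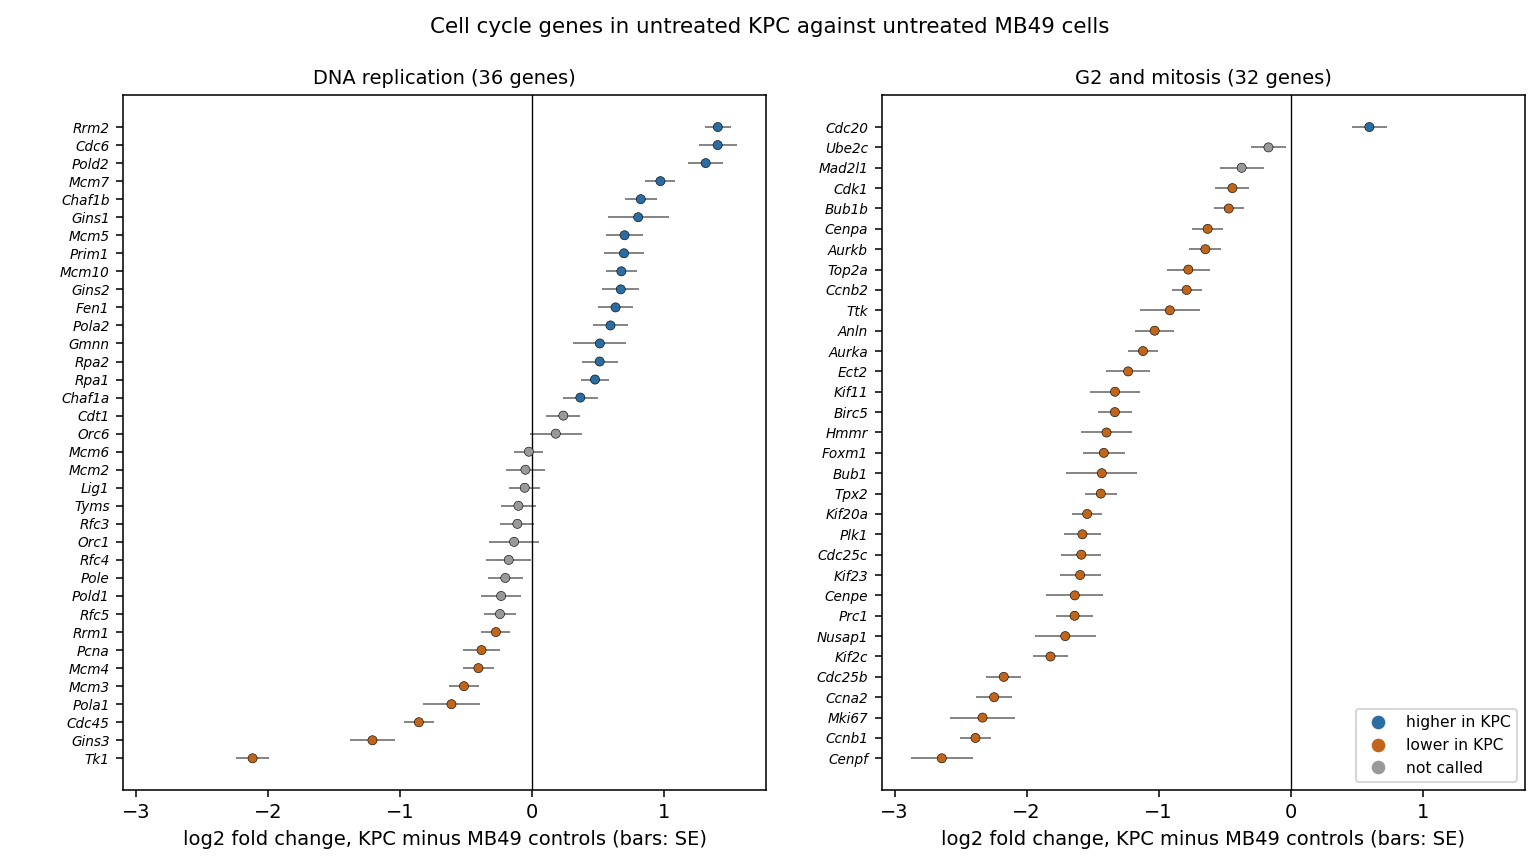
Log2 fold change, KPC minus MB49 controls, of each gene on the lists of DNA replication (36 genes, left) and of G2 and mitosis (32 genes, right), with the standard error as a bar; blue points were called higher in KPC, orange ones lower and grey ones neither. Replication genes lie on both sides of 0, with 16 higher and 8 lower, and 29 of the 32 mitotic genes lie below it and were called.

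Genes of cytosolic ribosomal proteins were higher in KPC in 36 of 42 cases and lower in 1, with a median of 0.98. Rpl37 stood at 1122, 1066 and 870.5 CPM in KPC and 238, 228 and 409.7 CPM in MB49 (1.80 ± 0.21). The 1 lower gene was Rpl6, at 634 ± 88.8 against 885 ± 110.3 CPM (-0.48 ± 0.13). Counts of these families may be shared with near-identical copies in the genome, which was not tested, so single members are uncertain. Ribosomal protein genes as a whole took 2.86, 2.81 and 4.02% of the counts in MB49 replicates 1 to 3 and 6.40, 6.19 and 5.00% in KPC. MB49 replicate 3 was the highest of its line and KPC replicate 3 the lowest of its line, without overlap. Their transcripts are short, 855.5 bases in the median, and they lay 0.51 above genes of the same length.

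Interferon-stimulated genes, which encode the antiviral machinery that interferons switch on through factors such as STAT2 and IRF9, stood higher in KPC across almost the whole list. Of 30 genes, all tested, 27 were higher, 24 of them at least 2-fold, and none lower, with a median of 3.64, against 33.0% higher over all genes. Many genes of this kind are known to carry a promoter element, the interferon-stimulated response element (ISRE), searched here on both strands as the letters GAAA, any 2 bases, and GAAA again. The promoters of 3 are shown because they hold it, with the matching letters in capitals, as the 250 bases before the start on the strand of the gene, from RefSeq, build GRCm38.p6. Isg15 lies on the minus strand at chr4:156200819-156201068, Oas1a on the minus strand at chr5:120907526-120907775 and Igtp on the plus strand at chr11:58199306-58199555.
Isg15: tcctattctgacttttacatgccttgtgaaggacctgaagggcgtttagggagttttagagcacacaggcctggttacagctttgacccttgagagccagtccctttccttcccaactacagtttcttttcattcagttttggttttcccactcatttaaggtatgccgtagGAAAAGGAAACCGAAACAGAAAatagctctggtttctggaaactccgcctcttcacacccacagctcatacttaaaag
Oas1a: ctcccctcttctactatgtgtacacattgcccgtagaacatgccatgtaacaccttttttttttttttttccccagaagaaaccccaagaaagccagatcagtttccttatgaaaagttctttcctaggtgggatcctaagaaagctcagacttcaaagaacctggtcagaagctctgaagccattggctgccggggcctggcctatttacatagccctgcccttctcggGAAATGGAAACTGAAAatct
Igtp: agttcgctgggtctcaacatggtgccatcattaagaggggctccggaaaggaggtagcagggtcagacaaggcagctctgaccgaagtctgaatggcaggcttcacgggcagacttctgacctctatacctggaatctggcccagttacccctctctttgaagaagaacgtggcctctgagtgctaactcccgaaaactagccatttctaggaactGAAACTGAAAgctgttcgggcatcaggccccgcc
The element was found in 12 of the 21 listed genes with a promoter in the table (57.1%), against 3.46% of all genes. The same letters were in 6 of 31 cytosolic ribosomal protein genes (19.4%), 1 of 26 mitotic genes (3.85%) and 1 of 31 replication genes (3.23%). A match is a description of these letters only.

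Isg15, a ubiquitin-like antiviral protein, stood at 44.1, 36.3 and 30.1 CPM in KPC and 0.327, 0.293 and 0.304 CPM in MB49 (6.87 ± 0.22, adjusted p = 2.97e-14). Oas1a, a sensor of double-stranded RNA, stood at 58.4, 56 and 49.3 against 0.545, 0.660 and 0.651 CPM (6.45 ± 0.19), and Usp18, which removes ISG15 and dampens the interferon receptor, at 22.1, 24.1 and 22.8 against 0.145, 0.220 and 0.217 CPM (6.86 ± 0.24). In each gene every KPC library lay far above every MB49 library. The GTPase Igtp measured 17.1 ± 2.40 CPM in KPC and 0.281 ± 0.0420 CPM in MB49 (5.89 ± 0.20). Among the transducers and regulators, Irf9 stood at 64 ± 1.34 CPM in KPC and 9.45 ± 0.50 CPM in MB49 (2.76 ± 0.13), and Irf7, which amplifies interferon production, at 50.9 ± 4.49 and 1.06 ± 0.357 CPM (5.60 ± 0.19). The 3 genes not called were Irf1, at 153 ± 9.60 CPM in MB49 and 137 ± 6.44 CPM in KPC (-0.15 ± 0.12), the RNA sensor Rigi, at 65.2 ± 7.95 and 69.2 ± 10.9 CPM (0.08 ± 0.13), and Mx1, with 3 counts in MB49 and 4 in KPC.

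**Figure D4:**
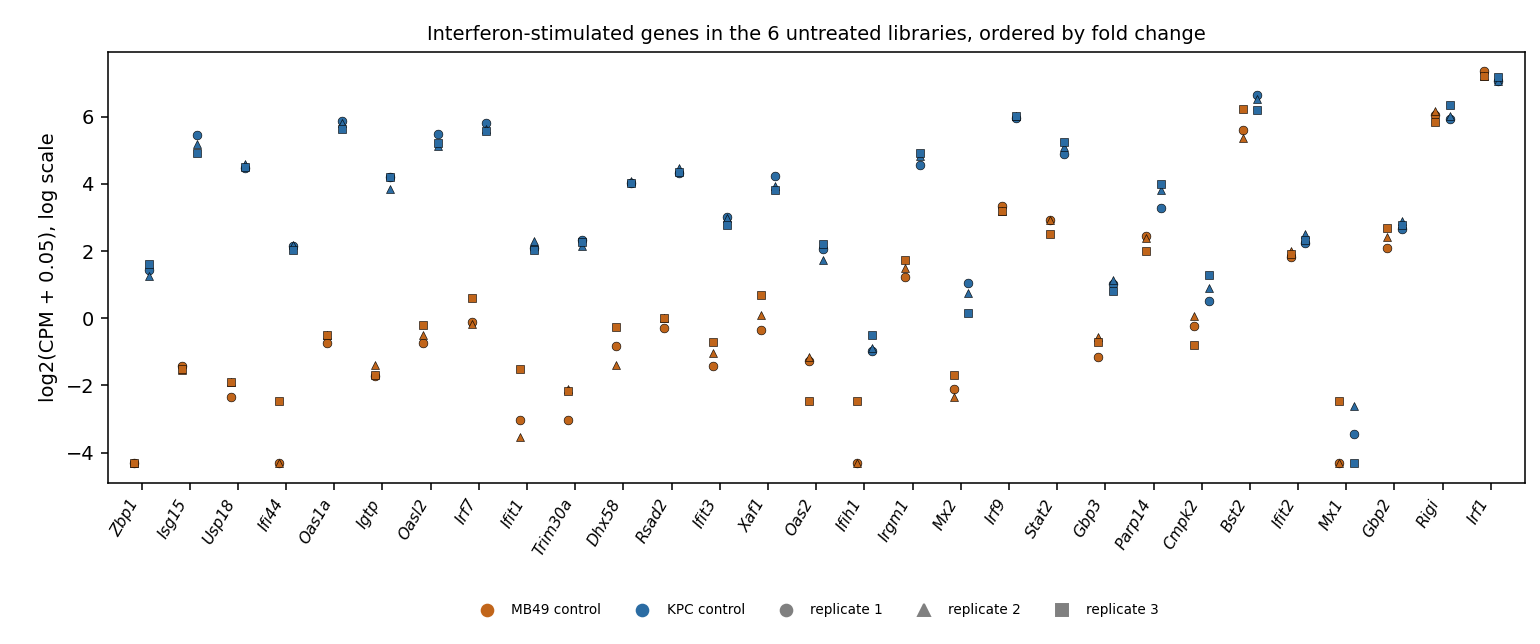
Level of 29 interferon-stimulated genes in each of the 6 untreated libraries as log2(CPM + 0.05), ordered from the highest fold change on the left, with a symbol for each replicate. KPC libraries lie above MB49 libraries in most genes, and the 3 genes that were not called, Mx1, Rigi and Irf1, stand among the 4 furthest to the right.

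Of 16 genes of antigen presentation by MHC class I, 8 were higher and 3 lower in KPC, with a median of 0.33. Psmb8, an immunoproteasome subunit, stood at 11.9, 11.4 and 9.64 CPM in KPC and 2.47, 1.98 and 3.21 CPM in MB49 (2.12 ± 0.16), Tap1, the peptide transporter, at 59.7 ± 1.30 against 28.7 ± 3.06 CPM (1.06 ± 0.14), and B2m, the light chain, at 357 ± 72.6 against 194 ± 24.7 CPM (0.88 ± 0.16). Nlrc5, the transcription factor that induces these genes, was lower in KPC, at 17.8 ± 4.62 against 42 ± 7.01 CPM (-1.24 ± 0.17). Of 14 tested ligands that immune cells read, 4 were higher and 7 lower. Pvr, a ligand of DNAM-1 and TIGIT, stood at 873, 801 and 707 CPM in MB49 and 79.9, 79.8 and 92.5 CPM in KPC (-3.24 ± 0.13), and Cd80, a ligand of CD28, at 42.4 ± 5.98 against 10.8 ± 1.52 CPM (-1.98 ± 0.15). Cd24a, a surface protein that macrophages and B cells recognise, stood at 125, 112 and 114 CPM in KPC and 0, 0.0367 and 0.260 CPM in MB49, a ratio of 6410.0 (1150.0 to 253000.0) without MB49 replicate 3.

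Transcripts of cytokines were divided between the lines. Of 27 tested cytokines and chemokines 9 were higher and 14 lower in KPC (median -0.51). Ccl2, which attracts monocytes, stood at 190.2, 198 and 279 CPM in MB49 and 0.250, 0.0374 and 0.0408 CPM in KPC (a difference of -12.30 to -10.50 over single libraries left out), and its neighbour Ccl7 at 19.7 ± 7.02 CPM with no count in KPC (at least 482-fold). Csf2, the gene of GM-CSF, stood at 25.5, 25.4 and 31.8 against 0.0416, 0.0748 and 0.0408 CPM (-8.88 ± 0.28). Cxcl5, which attracts neutrophils, was the KPC gene, at 106, 89.7 and 81.1 against 0.799, 1.03 and 1.04 CPM (6.59 ± 0.17), and Il33, an alarm cytokine, stood at 33, 38 and 31.7 CPM in KPC with 2 counts in MB49, a ratio of 1340.0 (370.0 to 11000.0). Both counts were in MB49 replicate 3, and without it the bound for Il33 was at least 628-fold. Monocyte attractants and GM-CSF were thus found in MB49 and a neutrophil attractant in KPC.

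Matrix genes were exchanged rather than lost. Of 22 basement membrane and collagen genes 7 were higher and 11 lower in KPC (median -0.51). Nid1, a linker of basement membranes, stood at 352, 347 and 243 CPM in MB49 and 0.333, 0.262 and 0.449 CPM in KPC (-9.80 ± 0.26), and Lamb3, a chain of laminin 332, at 157, 141 and 155 against 0.0416, 0.299 and 0.245 CPM (-9.52 ± 0.27), with its partner chain Lama3 at 28.9 ± 7.55 against 0.136 ± 0.132 CPM (a difference of -8.80 to -7.24 over single libraries left out). Agrn, another basement membrane protein, was higher in KPC, at 179.8, 229 and 262 against 23, 17.5 and 18.6 CPM (3.50 ± 0.18), and so was Col6a3, at 115 ± 25.3 against 16.5 ± 1.94 CPM (2.80 ± 0.18). Of 16 integrins 4 were higher and 8 lower, with Itgb4, the receptor of laminin 332, at 342 ± 42.1 CPM in MB49 against 127 ± 22.6 CPM (-1.43 ± 0.17), Itgb7 at 462 ± 41.8 against 81.3 ± 0.303 CPM (-2.51 ± 0.14), and Itga8 at 29.2 ± 7.46 CPM in MB49 with no count in KPC (at least 743-fold).

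Genes of proteases and their inhibitors were more often lower than higher in KPC, with 15 of 23 tested lower, 13 of them at least 2-fold, and 5 higher (median -1.68). Mmp9, a gelatinase, stood at 71.9, 61.2 and 63.8 CPM in MB49 and 0.250, 0.486 and 0.572 CPM in KPC (-7.21 ± 0.24), and the surface protease Adam8 at 156 ± 8.86 against 9.22 ± 0.566 CPM (-4.08 ± 0.14). Mmp15, a membrane protease, was higher in KPC, at 50.8 ± 5.72 against 1.21 ± 0.334 CPM (5.40 ± 0.21).

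Genes of acute response and of protein stress leaned to MB49. Of 21 immediate early genes 6 were higher and 13 lower in KPC (median -0.66): Egr2 stood at 68.9, 65.9 and 64.8 CPM in MB49 and 2.95, 2.73 and 4.17 CPM in KPC (-4.34 ± 0.17), Klf6 at 505 ± 51 against 55.3 ± 5.65 CPM (-3.19 ± 0.13) and Fos at 21.9 ± 1.82 against 3.22 ± 0.200 CPM (-2.76 ± 0.14). Of the 6 that were higher, 4 were at least 2-fold higher. Atf3 had the largest difference of these, at 58.1, 56.4 and 54 CPM in KPC and 0.254, 0.183 and 0.130 CPM in MB49 (8.15 ± 0.24). Klf2 had 479 counts in KPC, and its 5 MB49 counts were all in replicate 3 (at least 116-fold without it). Of 21 genes that respond to unfolded protein or belong to the integrated stress response, 5 were higher and 11 lower (median -0.43). Hspa5, the main chaperone of the endoplasmic reticulum, stood at 1781 ± 262 CPM in MB49 and 710.1 ± 34.6 CPM in KPC (-1.33 ± 0.14), and Atf6, a sensor of unfolded protein, at 326 ± 37.5 against 96.3 ± 8.85 CPM (-1.76 ± 0.12). Sdf2l1, at 34.6 ± 1.69 against 16.3 ± 3.35 CPM (1.09 ± 0.14), and Manf, at 127 ± 27 against 60.02 ± 12.4 CPM (1.08 ± 0.18), both soluble proteins of the same compartment, were higher in KPC.

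The genes with the largest differences over the whole table were mostly silent in one line. On the side of KPC, with no count in any MB49 control, were Adgrg6, an adhesion receptor, at 76, 93.1 and 97.3 CPM (at least 2310.0-fold), the antiproliferative gene Btg3 at 48.5 ± 18.7 CPM (at least 1250.0-fold), the scavenger receptor Scara3 at 43.3 ± 2.99 CPM (at least 1120.0-fold), and En1, a homeobox factor of the midbrain and limb, at 23.5 ± 0.807 CPM (at least 610.0-fold). Arl4c, a small GTPase, reached 231, 240.0 and 238 CPM against 2 counts in MB49, a ratio of 9200.0 (2550.0 to 76000.0). Both counts were in MB49 replicate 3, and without it the bound was at least 4320.0-fold. On the side of MB49, with no count in KPC, were the adhesion protein Cadm3, at 276, 235 and 219 CPM (at least 6140.0-fold), Slc24a3, an ion exchanger, at 114 ± 12.8 CPM (at least 2880.0-fold), Ptgds, a prostaglandin synthase, at 71.9 ± 12.5 CPM (at least 1790.0-fold) and the homeobox factor Irx2, at 68.5 ± 15.1 CPM (at least 1690.0-fold). Cd34, a surface protein known from blood and vessel progenitors, stood at 1674, 1678 and 1432 CPM in MB49 and 0.125, 0.0374 and 0.123 CPM in KPC (-13.98 ± 0.29, adjusted p = 1.04e-15).

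The difference between the lines had another size in the libraries given 8 Gy for 4 of the 6 genes described here that could be compared. How many of all genes tested passed the same test was not counted, so 4 of 6 cannot be read against that share. The difference in Krt19 was 4.41 in the controls (5.03 without MB49 replicate 3) and 6.998 at 8 Gy, in Pdx1 2.15 and 2.90 and in Gata3 0.20 and 1.92, each larger at 8 Gy. The level of Pdx1 itself was lower at 8 Gy than in the controls in both lines, and that of Gata3 in MB49. The difference in Vim shrank from -2.26 to -0.37. Trp63 (4.58 and 4.82) and Gata6 (7.69 and 9.62) did not pass the test of the difference. The control value of Gata6 rests on 5 MB49 counts, all in replicate 3. Without that library the MB49 controls had no count, and the change for Gata6 went from 1.94 to -1.73.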

How the data were processed

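RNA was extracted with TRIzol and sequenced from libraries made with Illumina's stranded mRNA kit, per the labels' protocols. The submitters' processing notes name fastp, HISAT2, StringTie and build GRCm39, without versions; the tool that counted reads per gene, and its strand setting, are not given in the sources used here, so overlapping genes and near-identical copies may share reads. Estimated counts of each gene, as deposited, were not scaled between libraries by the authors: 6.20 to 8.65% of a library's values, zeros included, were not whole, and totals differed. It also holds the authors' group means, which were not used, and a gene length, used for levels per kilobase and for the check on length.

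The estimated counts were rounded. Of 57180 rows, 42818 were removed with filterByExpr by group; 525 rows had no symbol (0.184 to 0.449% of counts), and 233 repeated symbols were made distinct. Libraries were scaled by TMM. All 12 libraries entered a robust quasi-likelihood fit with a coefficient for each of the 4 groups (8 residual degrees of freedom, common biological coefficient of variation 0.150), and tests were 2-sided, with Benjamini-Hochberg adjustment over all 14362 genes. Standard errors are the absolute fold change divided by the root of the F statistic. The fit was tested on simulated counts. A fold against a group with 0 counts is a bound against 3 counts over the group; a ratio against 1 to 3 counts has a 95% exact interval, which covers counting error only. Software was edgeR 4.0.16, DESeq2 1.42.0 and limma 3.58.1 in R 4.3.3.

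The members, the 61 gene lists (1319 symbols, 1 of them missing from the table and 225 not tested) and the rule for naming genes were chosen with earlier results of these data known. The rule took set anchor genes, up to 3 genes higher and 3 lower from each list by fold change whose higher line had 5 CPM or more, and over all genes the 12 highest and 12 lowest with 20 CPM or more. Igtp, Kif2c, Prc1, Snai1, Irf7, Irf9 and the intestinal list were chosen after their values were seen; Irf1, Rigi, Mx1, Ube2c, Mad2l1, Cftr, Upk1a and Upk2 complete short counts. A few genes that the rule names are not reported here. Alternatives were another scaling, other filters, DESeq2, limma-voom, the control libraries alone, the replicate number as a block, removal of Rn18s-rs5 and leaving out each control library. Same-numbered libraries of the lines did not deviate together, with correlations of -0.0407, -0.0738 and -0.237.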

Additional observations from a re-analysis of the deposited data

Results flagged for a closer look

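The difference between the lines had another size in the libraries given 8 Gy than in the controls for 4 of 10 fixed genes described here. The test was the interaction term of edgeR's quasi-likelihood fit with adjustment over all genes, and all 4 were flagged for that. These genes were chosen with earlier results of these data known. For Krt19 the difference grew by 2.59 ± 0.44 on the log2 scale (adjusted p = 0.000447), or by 1.97 without MB49 control replicate 3 (adjusted p = 6.32e-06). Krt19 stood at 415.7 ± 22.7 CPM in irradiated KPC and 3.25 ± 0.14 CPM in irradiated MB49. The difference grew by 0.752 ± 0.189 for Pdx1 (adjusted p = 0.00404) and by 1.72 ± 0.21 for Gata3 (adjusted p = 8.64e-06). Pdx1 stood at 21.8 ± 1.78 CPM in irradiated KPC and 2.91 ± 0.10 CPM in irradiated MB49, below the controls of each line. Gata3 stood at 14.65 ± 0.40 and 3.87 ± 0.39 CPM, within the range of the controls in KPC and below them in MB49. For Vim the difference moved by 1.88 ± 0.18 towards 0 (adjusted p = 5.97e-07), with 8768 ± 125.0 CPM in irradiated KPC and 11370 ± 1008 CPM in irradiated MB49. Culture time may differ between controls and irradiated cells, since the labels give it only for the latter, and its part was not tested. Gata6 and Trp63 did not pass. Foxa2, Snai2 and Krt5 had groups at 0 counts, and Cdkn2a was too low to test. The share of all genes tested that passed was not counted, so the 4 cannot be read against it.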

How the results depend on the processing

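Under the scalings, filters, tools, sample sets and blocks tried, the counts of genes higher and lower in KPC stayed within 1.5 times 4735 and 4937; with at least 2-fold change also required they were 2678 and 2811. Leaving out 1 control library gave 4330 to 4902 higher and 4592 to 4995 lower. No call on a named gene changed direction in any alternative; Ccnd1, which was not called, ranged from -0.0169 to 0.0359, and 0 to 4 of 324 lost their call in each, among them mt-Co2, Axl and E2f8. The median of 16 of 61 lists changed sign in at least 1 alternative. In 6 of these it lay beyond 0.5, and it changed sign only where another filter or sample set changed which genes were tested: it ranged from -0.429 to 1.68 for junction genes, -1.81 to 0.702 for keratins, -3.47 to 4.33 for classical markers, -2.81 to 1.36 for endothelial markers, -1.79 to 1.79 for imprinted genes and -2.91 to 4.31 for mucins. Replicate numbers do not pair these libraries, so the replicate block is given only here: it left 4585 higher and 4740 lower in the fit to 12 libraries, and 3952 and 4116 in the fit to the 6 controls. Without a filter on low counts 26798 genes were tested, with 4813 higher and 5669 lower. At 20456639 counts or more per library, genes with a handful of counts, such as Cdkn2a and the uroplakins, could not be compared.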
